A study of Arabidopsis thaliana with 6 samples.

Results

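Leaves of the nrpe1-11 mutant, represented by 1 library, were set against 2 libraries of wild-type (WT) leaves, and all 32947 gene rows of the deposited tables were read. The mutant library and both WT libraries make up 3 of the 6 libraries of the series, which also holds 1 library each of 3 other mutant genotypes of the same pathway (idn2, a double mutant with the alleles idnl1-1 and idnl2-1, and a triple mutant with these and idn2-1). All were mRNA libraries of leaves aged 3 weeks from plants of the ecotype Columbia-0 kept in constant light. Neither the number of plants pooled nor the origin of the WT libraries from separate plants is given in the labels, so the difference between the WT libraries may be technical. With 1 mutant library there was no test, and sizes are given with the spread of the WT pair beside them.

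NRPE1 forms the catalytic core of RNA polymerase V, a plant-specific relative of RNA polymerase II. In RNA-directed DNA methylation, polymerase IV and RDR2 make the precursors of small RNAs, DCL3 cuts them, and AGO4 carries them to noncoding transcripts that polymerase V makes at the target, where the methyltransferase DRM2 is brought in. The pathway is known for silencing transposons and repeats near genes, and the demethylase gene ROS1 is known to need it for its own expression.

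Depth was 2737943 reads in WT replicate 1, 3078153 in nrpe1 and 5975802 in WT replicate 2, so WT replicate 1 was the control of matching depth. Levels are in RPKM, which scales reads by the length of the gene's span and by library depth, and in which each gene was found to carry what was read as 1 added read, taken off in the read numbers given. A gene was called when its log2(RPKM + 1) in nrpe1 differed in 1 direction from each WT library by at least 1 unit, which is 2-fold, among the 22063 genes that reached 1 RPKM in any of the 3 libraries. As the added read counts toward that level, 1863 of these are genes with 0 reads in all 3 libraries, 585 of them tRNA genes; none of the 1863 was called. By this rule 476 genes were lower in nrpe1 (2.16% of those tested) and 134 were higher (0.607%). Of the 20200 tested genes with a read these shares were 2.36% and 0.663%. Between the WT libraries themselves, 166 genes (0.752%) were at least 2-fold higher in replicate 2 and 70 (0.317%) were lower. These WT counts rest on 1 comparison, whereas the nrpe1 calls had to pass against each WT library. Their like measure is the nrpe1 counts against each WT library alone, given below. The smallest differences called were 1.0005 for lower and 1.004 for higher genes, and the largest left out were 0.998 and 0.997. Of the lower genes 87 differed at least 4-fold and 12 at least 8-fold from the nearer WT library; among the higher genes these numbers were 28 and 5. Against WT replicate 2 alone 844 genes were lower and 230 higher, and against WT replicate 1 alone 568 were lower and 376 higher. With a pseudocount of 0.25 in place of 1 the counts were 681 and 252, and with 4 they were 264 and 52.

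Support by reads differed between the directions. In the WT pair together, 460 of the 476 lower genes had at least 20 reads, while only 61 of the 134 higher genes had that many in nrpe1. The WT pair joins 2 libraries and is deeper than nrpe1, so the bar was easier to reach for lower genes. Above 50 RPKM in both WT libraries stood 86 of the lower genes, and 57 of the higher genes were under 1 RPKM in both. These 57 were tested only because nrpe1 reached 1 RPKM. WT replicate 2 gave lower RPKM than replicate 1 for abundant genes. The median difference over 35 tested genes of the photosystems, antenna and Rubisco was -0.07 against WT replicate 1 and 0.81 against WT replicate 2, and 17 control genes lay at 0.08 against WT replicate 1 and 0.48 against WT replicate 2; over all tested genes these medians were 0.02 and -0.08. Depth and any batch of replicate 2 cannot be told apart, and for abundant genes the comparison with WT replicate 1 comes first. The highest RPKM of any gene was 502 in WT replicate 1, 474 in nrpe1 and 259 in WT replicate 2. In the double mutant, also a deep library at 5819494 reads, it was 267. Whether high levels were held down in each library was not tested, so an uncalled abundant gene is not thereby shown to be steady.

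**Figure D1:**
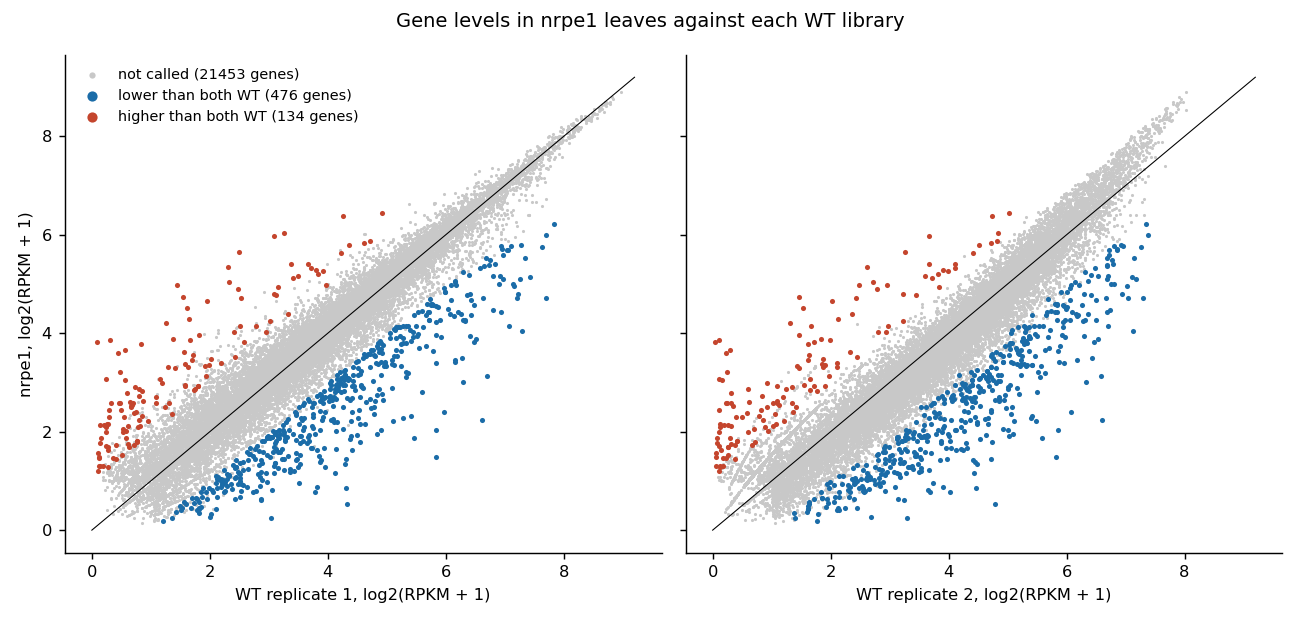
Each point is 1 of 22063 tested genes, with log2(RPKM + 1) in nrpe1 on the vertical axis and in WT replicate 1 (left) or WT replicate 2 (right) on the horizontal axis; the line marks equal values. Blue points are the 476 genes lower and red points the 134 genes higher than both WT libraries, and the most abundant genes lie on the line at left and above it at right.

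The mutated gene itself still gave reads. NRPE1 (AT2G40030, 16721572 to 16730661 on chromosome 2, positions in TAIR8 throughout) had 2.14 and 3.72 RPKM in WT and 4.92 in nrpe1, with 53 and 202 reads in WT and 138 in nrpe1. A gene total over the whole span, with no position along the gene, does not check an allele that leaves part of the transcript, so the genotype rests on the label. Among 25 tested genes of the methylation machinery, none met the 2-fold rule in either direction, and the medians were 0.11 against WT replicate 1 and -0.19 against WT replicate 2. NRPD1, the largest subunit of polymerase IV, had 1.00 and 2.49 RPKM in WT and 1.92 in nrpe1. AGO4 had 10.5 and 10.9 RPKM in WT and 10.8 in nrpe1, DRM2 had 5.86 and 8.87 RPKM in WT and 6.80 in nrpe1, and RDR2 had 3.68 and 3.57 RPKM in WT and 3.1995 in nrpe1; for AGO4 and RDR2 the 3 libraries were nearly level, and DRM2 in nrpe1 lay between the WT libraries. IDN2, an RNA-binding protein of the pathway, had 18.0 and 17.1 RPKM in WT and 15.8 in nrpe1. None of 11 genes of maintenance methylation and heterochromatin was called; SUVH6, a histone H3 lysine 9 methyltransferase, had 17.43 and 20.5 RPKM in WT and 11.5 in nrpe1.

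Among 6 demethylation genes ROS1 alone met the rule. ROS1 (15315100 to 15321351 on chromosome 2), which cuts methylated cytosine out of DNA, had 10.9 and 13.7 RPKM in WT and 2.52 in nrpe1, a read ratio to the WT pair of 0.194 (0.141 to 0.259). All ratios are per depth with exact 95% binomial intervals, which cover counting error only. Its relatives DME, DML2 and DML3 had 7.42 and 9.07 RPKM in WT and 6.57 in nrpe1, 3.28 and 4.09 against 2.87, and 1.597 and 2.82 against 2.19, in that order, less than 2-fold from either WT library. ROS1 was also low in the other mutants, at 1.32, 0.962 and 2.79 RPKM in the idn2, triple and double mutants, which were compared with the same WT libraries.

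A list of known targets of silencing by DNA methylation and their neighbours had 6 tested members. Of these SDC, MRD1 and HEI10 were higher and none was lower, beside 0.607% and 2.16% of all genes. MRD1 and HEI10 were under 1 RPKM in both WT libraries and were tested only because nrpe1 reached 1 RPKM. SDC, an F-box gene silenced through repeats in its promoter, had 1.997 and 2.63 RPKM in WT and 9.40 in nrpe1 with 6 and 19 reads in WT and 36 in nrpe1, a ratio of 4.08 (2.38 to 7.08). MRD1 had 1 and 0 reads in WT and 33 in nrpe1. HEI10, a meiotic crossover gene, had 5 and 19 reads in WT and 52 in nrpe1, but its span overlaps that of MRD1 and no source says that strand was used, so reads of the pair cannot be separated. QQS, a starch-related gene, had 4.99 and 6.61 RPKM in WT and 11.1 in nrpe1 and was not called. FWA, a homeobox gene silenced outside the seed, had 1 read in nrpe1 and 0 in both WT libraries.

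The 2 largest differences upward were at genes of the class pseudogene, which in the TAIR10.1 annotation also takes in transposable element genes. Counting its transcribed and other pseudogenes together, 18 of 510 tested genes (3.53%) were higher and 3 were lower, beside 0.607% and 2.16% of all genes. Of the 18, 10 had at least 20 reads, and 5 had no read in either WT library. Genes under 1 RPKM in both WT libraries, such as AT4G20365 and AT1G53810, were tested only because nrpe1 reached 1 RPKM. Such genes could not be called lower, so the share of higher genes follows in part from the filter. AT4G20365 (10993402 to 10998726 on chromosome 4) had 0 and 0 reads in WT and 218 in nrpe1, at least 206-fold higher against a floor of 3 reads over the WT pair. AT1G53810 (20089252 to 20093820 on chromosome 1) had 2 and 1 reads in WT and 192 in nrpe1, a ratio of 181 (61.1 to 886). In the idn2, triple and double mutant libraries both genes were at 0 reads, so among the 6 libraries they were read at these levels in nrpe1 alone.

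AT5G35935 (14100618 to 14107121 on chromosome 5) behaved otherwise across genotypes. It had 0.222 and 0.0768 RPKM in WT and 4.45 in nrpe1, and 4.85, 4.68 and 6.86 RPKM in the idn2, triple and double mutants, so that all 4 mutant libraries lay above both WT libraries. AT2G04460 (1547685 to 1548254 on chromosome 2) had 2.54 and 1.75 RPKM in WT and 14.7 in nrpe1, and 1.81, 13.1 and 10.2 RPKM in the idn2, triple and double mutants; idn2 lay between the WT libraries there. AT4G04293 (2076830 to 2077359 on chromosome 4) was already read in WT, with 7.50 and 11.6 RPKM in WT and 62.0 in nrpe1. Of the rest of the class with at least 20 reads, AT5G27845 had 0 and 3 reads in WT and 36 in nrpe1, AT4G01975 had 0 and 3 reads in WT and 20 in nrpe1, and AT5G27947, AT5G42645 and AT5G27925 had 25, 29 and 24 reads with 0 in each WT library. The remaining 8 rested on 3 to 19 reads. Reads that repeated copies share could be split between them by the counting, so levels of single pseudogene-class genes are uncertain.

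Other genes nearly unread in WT were higher as well. AT1G33840, a LURP-one-like gene, had 1 and 1 reads in WT and 53 in nrpe1, AT1G47980, annotated as desiccation-like, had 0 and 0 reads in WT and 46 in nrpe1, and AT1G20130, of the GDSL lipase family, had 0 and 1 reads in WT and 24 in nrpe1. The noncoding RNA gene AT1G67105 had 1.38 and 1.48 RPKM in WT and 17.61 in nrpe1. Short genes contributed calls on few reads. Of 71 tested snoRNA genes 9 were higher, beside 0.607% of all tested genes. These 9 had a median of 5 reads in nrpe1 over a median span of 78 bases. Both runs of 3 adjacent higher genes held snoRNA genes. The first run, AT2G20721 to AT2G20723, had 8, 6 and 2 reads, and the second, AT3G47342 to AT3G47348 in the order of the files, had 3, 5 and 16.

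Markers of flower tissue stood apart in this leaf library. Of 17 tested anther and tapetum genes 9 were higher (beside 0.607% of all genes) and none was lower. All 17 lay above both WT libraries. Markers under 1 RPKM in both WT libraries, such as LTP12 and ATA27, were tested only because nrpe1 reached 1 RPKM. Such markers could not be called lower, so these counts follow in part from the filter. The 23 measured markers summed to 25.1 RPKM in WT replicate 1, 28.0 in replicate 2 and 88.7 in nrpe1, against 17.64 to 19.0 in the other mutants. With 0 reads were 14 of them in WT replicate 1, 9 in replicate 2 and 2 in nrpe1. More cells of a type and more RNA per cell cannot be told apart in such whole-leaf samples.

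The 9 called markers are genes of the tapetum, the cell layer that feeds developing pollen, and of the pollen coat. LTP12, a lipid transfer protein, had 0 and 0 reads in WT and 34 in nrpe1, at least 32.1-fold higher against the same floor. ATA27, a glycosyl hydrolase, had 0 and 0 reads in WT and 25 in nrpe1, and the methyltransferase gene TSM1 had 0 and 1 reads in WT and 21 in nrpe1. The glycine-rich pollen coat genes GRP17, GRP19 and GRP20 had 18, 23 and 11 reads in nrpe1, against 0, 0 and 3 in the WT pair. ATA7, EXL6 and ATA1 had 14, 7 and 9 reads, against 0, 0 and 5. The master regulators of the tapetum were near the floor: DYT1 had 0 reads in all 3 libraries, MS1 had 2 in each, and AMS had 1 and 11 reads in WT and 6 in nrpe1.

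Of 7 tested floral organ genes none was called, and 6 of them lay above both WT libraries. AG, under 1 RPKM in both WT libraries, was tested only because nrpe1 reached 1 RPKM. AP1, which specifies floral meristems and sepals, had 0.725 and 1.09 RPKM in WT and 2.50 in nrpe1. PI, of petals and stamens, had 0.876 and 1.48 RPKM in WT and 3.38 in nrpe1, SEP3 had 1.27 and 1.62 RPKM in WT and 3.69 in nrpe1, and AG, of stamens and carpels, had 0.445 and 0.615 RPKM in WT and 1.301 in nrpe1. SEP1 had 5.38 and 6.43 RPKM in WT and 5.13 in nrpe1. Their 10 measured members summed to 11.2, 14.7 and 21.7 RPKM in WT replicate 1, WT replicate 2 and nrpe1. Pollen markers summed to 5.25, 6.74 and 5.29 RPKM, and seed markers to 11.7, 11.0 and 8.97, with nrpe1 not above both WT libraries in either list. Only 1 of 7 measured pollen markers and 1 of 12 seed markers was tested. In nrpe1 5 pollen and 10 seed markers had 0 reads, so these sums, which include the added read, say little. Green leaf markers, of which none was at 0 reads, summed to 2227 RPKM in WT replicate 1, 1203 in WT replicate 2 and 2101 in nrpe1. Abundant genes were lower in WT replicate 2, as given above. The part of flower tissue in the other differences of the nrpe1 library was not tested.

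**Figure D2:**
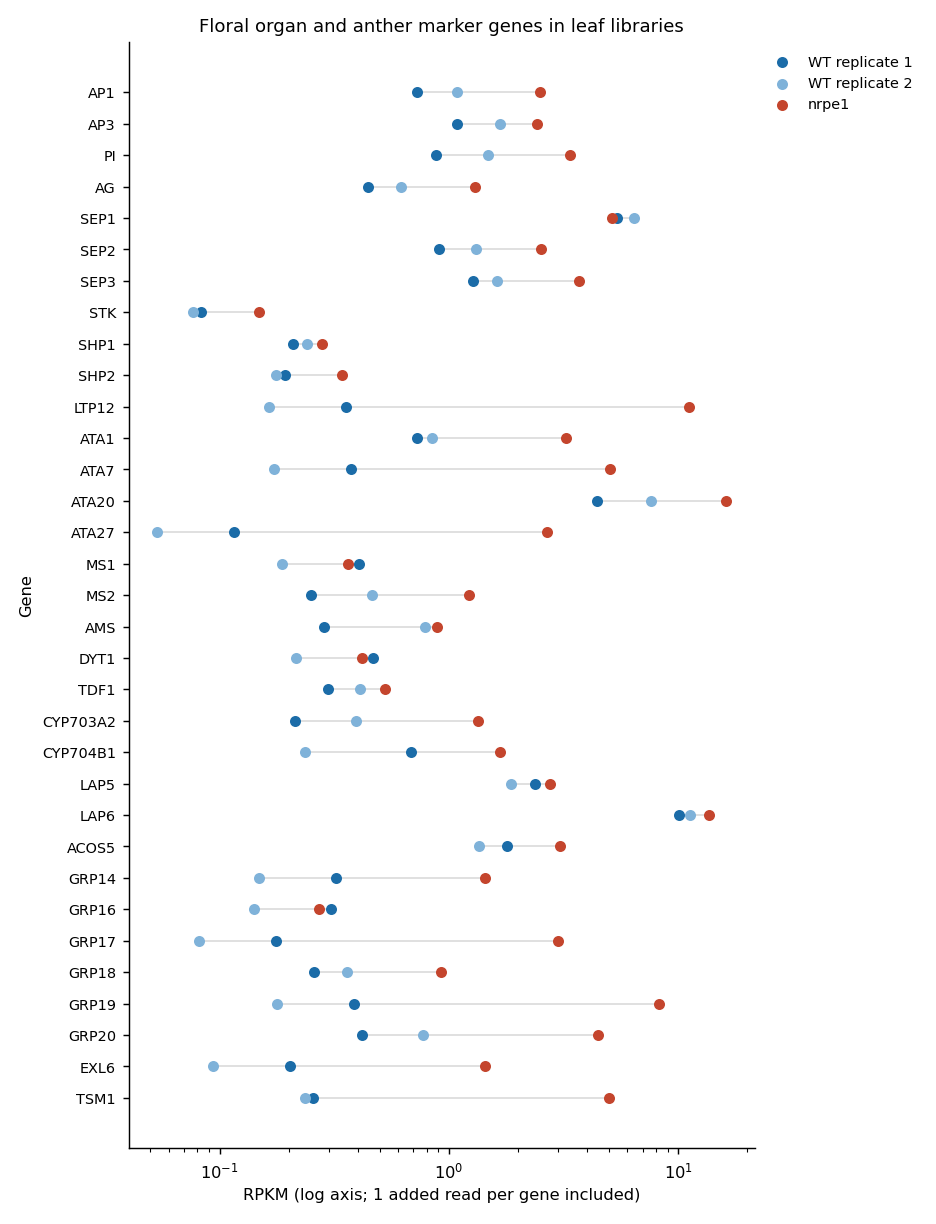
Points give the RPKM of 10 floral organ and 23 anther and tapetum marker genes in WT replicate 1, WT replicate 2 and nrpe1, on a log axis with the added read included. The nrpe1 points of LTP12, GRP19, ATA7 and TSM1 lie at 5.01 RPKM or more, where both WT libraries lie under 0.4.

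Other genes among the largest upward differences have roles known from earlier work. PIL1, a bHLH gene induced by shade, had 0.772 and 2.07 RPKM in WT and 12.7 in nrpe1, and CBF3, a transcription factor of cold acclimation, had 1.59 and 2.57 RPKM in WT and 13.8 in nrpe1. CYP96A15, a hydroxylase that acts on wax alkanes, had 4.59 and 5.87 RPKM in WT and 28.6 in nrpe1. FTM1, annotated as a stearoyl-ACP desaturase, had 1.71 and 4.57 RPKM in WT and 30.7 in nrpe1, and WT replicate 2 was itself above replicate 1 there. AT2G44940, an AP2/ERF gene, was the most abundant of the named higher genes, with 18.0 and 25.8 RPKM in WT and 82.2 in nrpe1, a ratio of 3.55 (2.98 to 4.23). ERF15, of the same family, had 9.41 and 11.7 RPKM in WT and 41.2 in nrpe1.

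**Figure D3:**
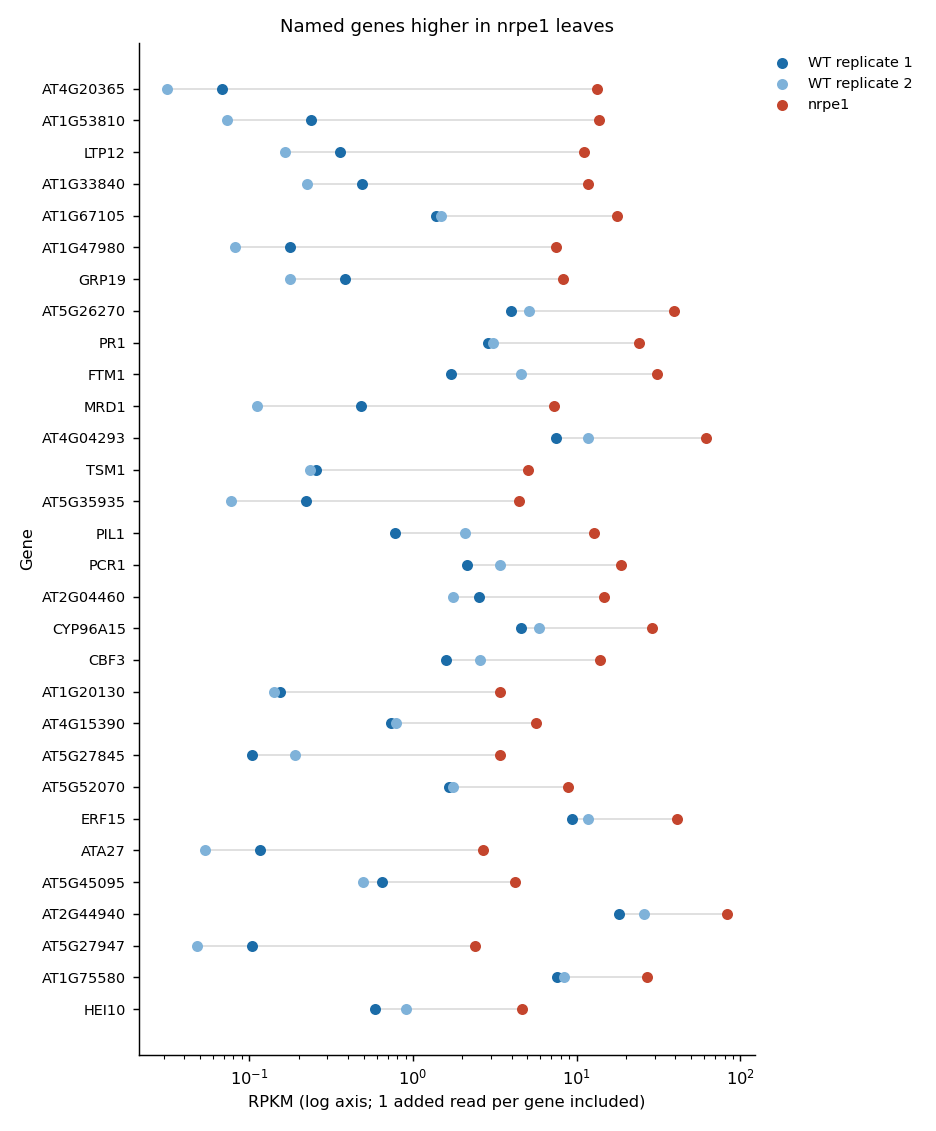
Points give the RPKM, on a log axis with the added read included, of the 30 genes that lay farthest above the nearer WT library with at least 20 reads in nrpe1. In each gene both blue WT points lie below the red nrpe1 point, and they lie under 1 RPKM in AT4G20365, AT1G53810, LTP12 and other genes nearly unread in WT.

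Salicylic acid defence held the most higher members of the 30 gene lists: 7 of 27 tested were higher (25.9%, beside 0.607% of all genes) and 2 were lower, with medians of 0.38 against WT replicate 1 and 0.23 against WT replicate 2. PR1, the classical marker of this defence, had 2.85 and 3.07 RPKM in WT and 24.1 in nrpe1, a ratio of 8.81 (5.10 to 15.9). LURP1 had 10.3 and 11.1 RPKM in WT and 34.7 in nrpe1, and AED1, an aspartyl protease gene, had 9.68 and 12.2 RPKM in WT and 33.8 in nrpe1. ACD6, an ankyrin membrane protein that promotes salicylic acid signalling, had 19.5 and 21.8 RPKM in WT and 54.1 in nrpe1. WRKY54 had 3.05 and 2.64 RPKM in WT and 10.05 in nrpe1, DLO1, which hydroxylates salicylic acid, had 0.742 and 0.798 RPKM in WT and 3.75 in nrpe1, and NIMIN1, a repressor that binds NPR1, had 0.668 and 1.54 RPKM in WT and 6.55 in nrpe1.

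CBP60g and GRXS13 were the lower members of that list. CBP60g, an activator of salicylic acid synthesis genes, had 12.5 and 13.9 RPKM in WT and 3.24 in nrpe1, and the glutaredoxin gene GRXS13 had 2.39 and 2.6004 RPKM in WT and 0.580 in nrpe1. WRKY70 was not called, at 72.5 and 66.9 RPKM in WT and 39.7 in nrpe1, and PR5 and EDS1 had 49.3 and 56.4 RPKM in WT and 66.8 in nrpe1, and 24.9 and 29.5 against 24.3, in that order. PR1 in the other genotypes was 22.6, 0.932 and 0.900 RPKM in the idn2, triple and double mutants, on 49, 1 and 3 reads. Thus idn2 stood near nrpe1, and the mutants with both idnl alleles stood below WT. That last difference rests on few reads, as WT had 5 and 13. PAD3, of camalexin synthesis, was higher at 0.822 and 1.14 RPKM in WT and 5.12 in nrpe1, while CYP81F2, of indole glucosinolate synthesis, was lower at 12.3 and 14.1 RPKM in WT and 3.35 in nrpe1; they were the called members of 28.

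The lower genes were led by PHI-1 and BT2, which are known to respond to carbon limitation. PHI-1 (AT1G35140, 12851975 to 12853106 on chromosome 1), an EXORDIUM-like gene, had 97.0 and 95.9 RPKM in WT and 3.69 in nrpe1, with 303 and 651 reads in WT and 12 in nrpe1, a ratio of 0.0356 (0.0183 to 0.0625). BT2 (AT3G48360, 17919177 to 17921510 on chromosome 3), a BTB and TAZ domain scaffold protein, had 56.3 and 55.6 RPKM in WT and 1.79 in nrpe1, a ratio of 0.0298 (0.0153 to 0.0522). For both genes the WT libraries were nearly equal.

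A list of transcription factors that plants switch on soon after wounding or touch held more lower members than any other of the 30 lists. Of 44 tested members of that list 23 were lower (52.3%, beside 2.16% of all genes) and 1, CBF3, was higher; 40 of 44 lay below both WT libraries, and the medians were -1.17 against WT replicate 1 and -1.49 against WT replicate 2. Ethylene response factors stood first. ERF105 (AT5G51190, 20817810 to 20818642 on chromosome 5) had 56.4 and 56.6 RPKM in WT and 3.09 in nrpe1, ERF104 had 61.9 and 66.6 RPKM in WT and 4.31 in nrpe1, ERF6 had 22.5 and 25.7 RPKM in WT and 2.47 in nrpe1, and ERF5 had 14.3 and 18.9 RPKM in WT and 2.16 in nrpe1. DREB26, a relative of the dehydration-response factors, had 102 and 94.7 RPKM in WT and 7.74 in nrpe1, and the jasmonate regulator ORA47 had 18.1 and 29.2 RPKM in WT and 3.15 in nrpe1. In each of these the lower WT library was at least 4 times the nrpe1 level.

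Zinc finger, WRKY and MYB genes of the list were lower as well. Among the zinc finger genes, SZF1 had 88.1 and 87.6 RPKM in WT and 13.1 in nrpe1, ZAT10 had 49.95 and 58.6 RPKM in WT and 12.4 in nrpe1, and ZAT12 had 14.2 and 20.8 RPKM in WT and 3.94 in nrpe1. Of the WRKY genes, which bind W boxes in defence promoters, WRKY18 had 29.6 and 29.6 RPKM in WT and 5.28 in nrpe1, WRKY33 had 42.6 and 50.6 RPKM in WT and 14.2 in nrpe1, and WRKY40 had 9.98 and 12.0 RPKM in WT and 1.96 in nrpe1. MYB73 had 111 and 106 RPKM in WT and 21.1 in nrpe1 and MYB77 had 118 and 110.2 RPKM in WT and 30.8 in nrpe1. RAV1 and RAV2, which restrain growth or flowering, had 122 and 101 RPKM in WT and 20.6 in nrpe1, and 89.9 and 91.5 against 13.7, in that order. The 3 most abundant members left uncalled were also below both WT libraries: WRKY11 had 54.0 and 57.1 RPKM in WT and 34.5 in nrpe1, CZF1 had 29.6 and 35.7 RPKM in WT and 16.8 in nrpe1, and ERF2 had 27.4 and 30.8 RPKM in WT and 13.7 in nrpe1.

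Early signalling genes were called as well. Of 27 calcium sensor genes 5 were lower, beside 2.16% of all genes, and none was higher. TCH2, a calmodulin-like gene named for its response to touch, had 155 and 121 RPKM in WT and 54.2 in nrpe1, CML38 had 20.2 and 18.0 RPKM in WT and 2.095 in nrpe1, and the calcium-dependent kinase CPK32 had 42.7 and 38.1 RPKM in WT and 15.2 in nrpe1. The calmodulins CAM2, CAM3 and CAM5 were not called, and CAM5 had 84.3 and 65.0 RPKM in WT and 88.4 in nrpe1. Of 30 early genes of RNA decay, kinases and ubiquitin ligases 9 were lower and none was higher, beside the same share: the deadenylase CAF1a had 56.3 and 60.4 RPKM in WT and 17.63 in nrpe1, the kinase MKK9 had 32.1 and 39.9 RPKM in WT and 13.9 in nrpe1, and the ubiquitin ligases PUB23 and ATL31 had 22.3 and 28.0 RPKM in WT and 5.56 in nrpe1, and 19.9 and 22.2 against 2.59, in that order. The syntaxin SYP122, of secretion at the plasma membrane, had 40.2 and 48.8 RPKM in WT and 8.11 in nrpe1. MPK3, a kinase of the same early response, had 72.6 and 67.7 RPKM in WT and 50.8 in nrpe1 and was not called.

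The cell wall list holds xyloglucan endotransglucosylases (XTH genes), expansins, EXORDIUM-like, fasciclin-like and other wall genes. Of 30 tested 10 were lower (beside 2.16% of all genes) and none was higher, with medians of -0.23 against WT replicate 1 and -0.27 against WT replicate 2. TCH4, a xyloglucan endotransglucosylase, had 206 and 157 RPKM in WT and 25.1 in nrpe1, the highest WT level among the named lower genes. XTH19 had 16.3 and 20.5 RPKM in WT and 1.23 in nrpe1, XTH18 had 13.1 and 16.5 RPKM in WT and 2.08 in nrpe1, and XTH23 had 26.8 and 28.0 RPKM in WT and 5.18 in nrpe1. EXO, a growth-promoting relative of PHI-1, had 197 and 153 RPKM in WT and 52.9 in nrpe1. The fasciclin-like genes FLA2 and FLA9, of similar abundance, had 191 and 161 RPKM in WT and 183 in nrpe1, and 171 and 135 against 134, in that order, and were not called.

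Of 36 sugar starvation genes 14 were lower (38.9%, beside 2.16% of all genes) and MIOX2 was higher. The medians were -0.73 against WT replicate 1 and -0.88 against WT replicate 2. Members of this list were partly picked with earlier results of these libraries known, so its share of lower genes follows in part from that choice. PHI-1 and EXL2 are also members of the cell wall list. The BTB and TAZ genes BT1, BT4 and BT5 had 84.9 and 72.1 RPKM in WT and 19.7 in nrpe1, 52.8 and 55.2 against 23.3, and 29.3 and 35.5 against 5.84, in that order, so that with BT2 4 of 5 tested genes of this family were called. The trehalose-phosphate synthase family genes TPS8, TPS9 and TPS11 had 77.1 and 78.1 RPKM in WT and 18.204 in nrpe1, 18.3 and 22.9 against 6.10, and 98.0 and 101 against 25.2, in that order. KMD1, a kelch-repeat F-box gene, had 155 and 138 RPKM in WT and 15.6 in nrpe1, and the transcription factor BZIP1, which acts in energy shortage, had 30.3 and 41.9 RPKM in WT and 9.22 in nrpe1. MIOX2, a myo-inositol oxygenase, had 3 and 2 reads in WT and 17 in nrpe1. Of 27 starch genes only BAM9, a beta-amylase-like protein, was lower, at 67.3 and 66.0 RPKM in WT and 24.4 in nrpe1; BAM3, the main beta-amylase of leaf starch breakdown, had 187 and 142 RPKM in WT and 138 in nrpe1.

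The jasmonate and ethylene lists followed. Of 37 jasmonate genes 4 were lower (beside 2.16% of all genes) and none was higher: the lipoxygenase LOX4 had 16.9 and 18.4 RPKM in WT and 3.56 in nrpe1, and the repressors JAZ1, JAZ5 and JAZ7 had 24.6 and 35.8 RPKM in WT and 11.0 in nrpe1, 5.23 and 5.99 against 1.68, and 13.0 and 13.9 against 0.828, in that order. The abundant synthesis genes AOS and LOX2 had 183 and 148 RPKM in WT and 144 in nrpe1, and 163 and 118 against 130.1, in that order. Genes of ethylene synthesis were called in both directions. ACS6 and ACS11, which make the precursor of ethylene, had 83.7 and 77.8 RPKM in WT and 14.5 in nrpe1, and 12.8 and 15.3 against 0.704, in that order, whereas ACO1, an oxidase of the last step, was higher at 7.75 and 9.97 RPKM in WT and 26.4 in nrpe1.

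Of 35 abscisic acid and cold genes 5 were lower (beside 2.16% of all genes) and none was higher, with medians of -0.46 against WT replicate 1 and -0.64 against WT replicate 2. CYP707A3 and CYP707A2, hydroxylases that break down abscisic acid, had 18.9 and 21.0 RPKM in WT and 0.821 in nrpe1, and 10.9 and 12.0 against 4.85, in that order, and the receptor gene PYL5 had 38.9 and 44.7 RPKM in WT and 8.33 in nrpe1. RD29B had 8 and 35 reads in WT and 0 in nrpe1, and GOLS3, of raffinose synthesis, had 11.8 and 15.6 RPKM in WT and 5.15 in nrpe1. The cold-response genes COR47 and ERD10 had 185 and 129.5 RPKM in WT and 129 in nrpe1, and 168 and 116 against 126, in that order, and were not called. RD26, a NAC factor induced by drought, was among the named lower genes at 70.1 and 71.3 RPKM in WT and 9.91 in nrpe1.

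The other hormone and stress lists are to be read beside the same shares of all genes, 2.16% lower and 0.607% higher. Of 35 auxin genes the repressor genes IAA6 and IAA14 were lower, at 13.5 and 16.2 RPKM in WT and 3.08 in nrpe1, and 16.9 and 18.4 against 6.88, in that order, and YUC9, of auxin synthesis, was higher on 16 reads against 2 and 5. Among 28 genes of cytokinin, gibberellin and brassinosteroid only GA2OX6, which inactivates gibberellin, was called, at 2.34 and 2.88 RPKM in WT and 0.463 in nrpe1. Of 21 heat shock genes 3 were lower: HSP70 had 66.6 and 70.8 RPKM in WT and 20.1 in nrpe1, HSP90.1 had 21.8 and 26.8 RPKM in WT and 8.79 in nrpe1, and HSFB2A had 16.0 and 22.1 RPKM in WT and 4.76 in nrpe1. Of 24 nitrate genes the repressor LBD38 was lower at 94.4 and 88.5 RPKM in WT and 39.2 in nrpe1, as was PGL1, of the pentose phosphate pathway, at 11.8 and 15.3 RPKM in WT and 2.53 in nrpe1. Of 26 genes of iron, sulfur and phosphate LSU3 and SDI1, both of the sulfur-deficiency response, were lower at 22.8 and 31.2 RPKM in WT and 6.55 in nrpe1, and 8.70 and 11.5 against 2.49, in that order. NAP and ORE1, NAC factors of leaf senescence, had 27.3 and 33.1 RPKM in WT and 9.53 in nrpe1, and 21.8 and 27.6 against 7.87, in that order, and SAG13 was higher at 4.40 and 4.46 RPKM in WT and 10.4 in nrpe1, the called members of 12.

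Clock and light lists held 0 to 2 calls each, beside the same shares of all genes. Of 26 clock genes RVE1 and RVE8, MYB-like factors of the morning, were lower. RVE1 had 28.2 and 31.1 RPKM in WT and 6.25 in nrpe1; its level was 24.0, 20.1 and 25.8 RPKM in the idn2, triple and double mutants, so nrpe1 was the lowest of the 6 libraries. RVE8 had 18.5 and 20.5 RPKM in WT and 7.95 in nrpe1. Of 18 B-box genes BBX29 was higher at 14.2 and 15.0 RPKM in WT and 37.4 in nrpe1. Of 18 flowering-time genes SMZ, a repressor of flowering, was lower at 2.96 and 2.91 RPKM in WT and 0.802 in nrpe1, and in 31 redox genes only the mitochondrial carrier DIC2 was called, at 77.0 and 79.1 RPKM in WT and 7.02 in nrpe1. No member was called among 35 genes of the photosystems, antenna and Rubisco, 22 of flavonoid and anthocyanin synthesis, 22 of cell division, 19 of stomata and trichomes, and 17 control genes. For the abundant genes among these the missing call does not show a steady level, as the highest RPKM was lower in the deeper libraries. Chalcone synthase CHS had 269 and 181 RPKM in WT and 287 in nrpe1, the histone gene HTA6 had 90.8 and 85.1 RPKM in WT and 131 in nrpe1, and UBQ5 had 265 and 168 RPKM in WT and 278 in nrpe1.

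**Figure D4:**
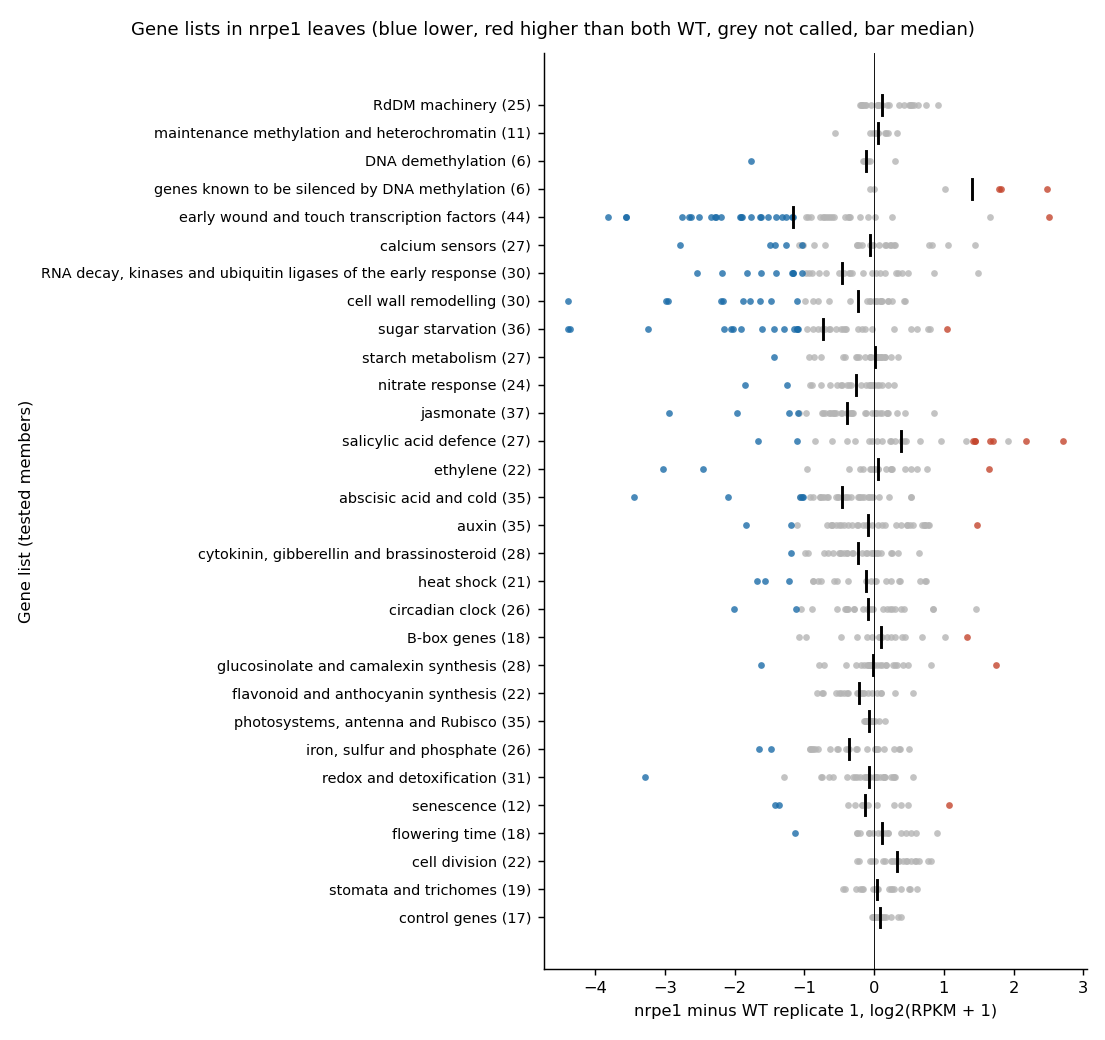
Each point is a tested member of 1 of 30 gene lists, placed at its difference on log2(RPKM + 1) between nrpe1 and WT replicate 1, with the number tested in brackets and the list's median as a black bar. Blue members were lower and red members higher than both WT libraries by at least 2-fold. Blue members gather in the early wound and touch (23 of 44) and sugar starvation (14 of 36) lists, and red members in the salicylic acid list (7 of 27). The lists were chosen, and sugar starvation members partly picked, with earlier results of these data known.

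In all, the 30 lists, chosen with earlier results of these data known, held 739 distinct tested genes. Of these 91 were lower and 17 higher, beside 2.16% and 0.607% of all tested genes. Most of the 476 lower genes are thus in none of the lists. Among such genes AT1G33760, of the AP2/ERF family, had 37 and 114 reads in WT and 0 in nrpe1, at least 17.8-fold lower with nrpe1 set at the floor of 3 reads. AT1G50040, annotated with a domain of unknown function, had 43.1 and 47.0 RPKM in WT and 2.65 in nrpe1, and AT2G27080, an LEA-like glycoprotein gene that overlaps AT2G27090, had 41.6 and 41.7 RPKM in WT and 3.96 in nrpe1. MYB70, a relative of MYB73 and MYB77, had 76.4 and 84.9 RPKM in WT and 10.2 in nrpe1. AT5G37990, of a methyltransferase family, had 34 and 92 reads in WT and 0 in nrpe1, and its level was 6.61, 6.62 and 6.49 RPKM in the idn2, triple and double mutants; all 5 other libraries lay between 6.49 and 8.78 RPKM.

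**Figure D5:**
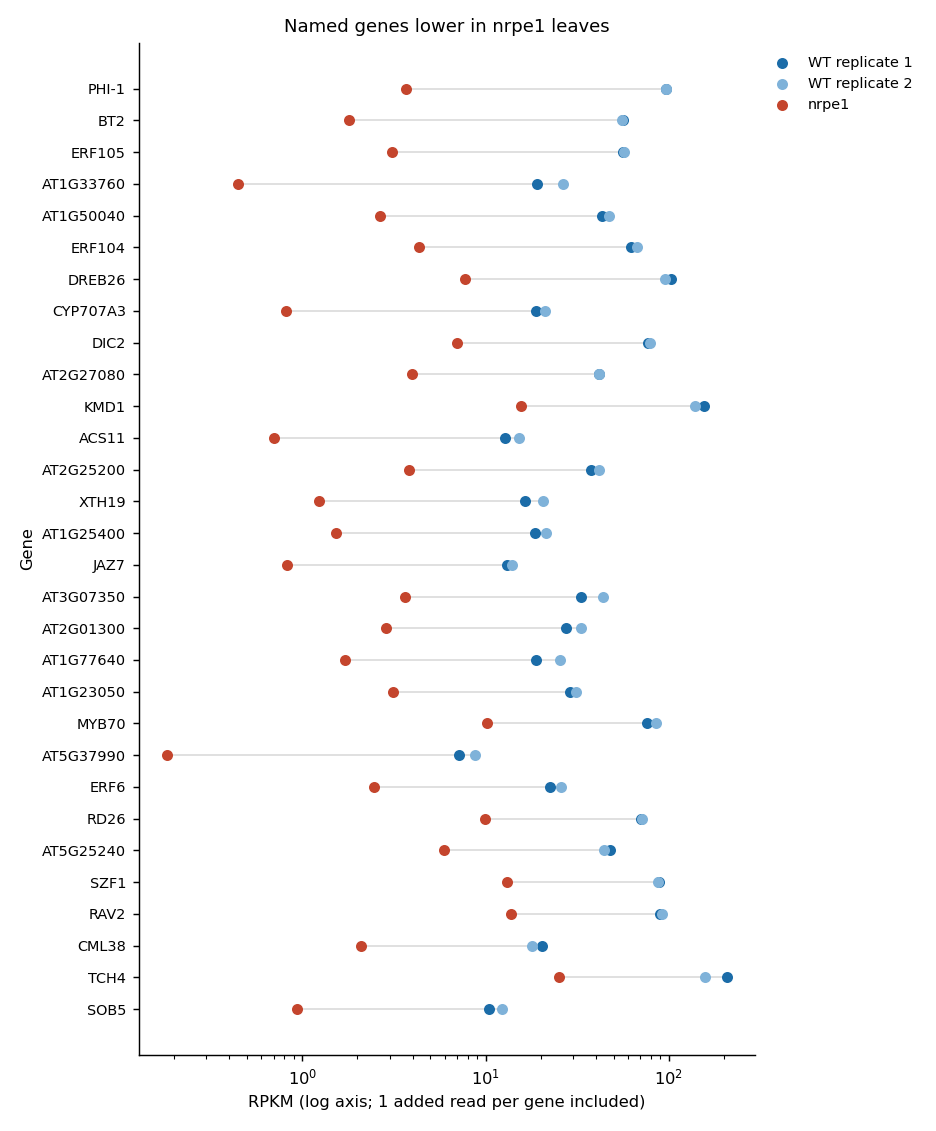
Points give the RPKM, on a log axis with the added read included, of the 30 genes that lay farthest below the nearer WT library with at least 20 reads in the WT pair. The WT points of each gene lie close together and to the right of the nrpe1 point, from TCH4 at 25.1 RPKM in nrpe1 to AT5G37990 at 0.182.

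Values in idn2 are set beside these, with the same WT libraries as controls for both mutants. PHI-1 had 5.76 RPKM in idn2 and 76.6 in the triple mutant, and BT2 had 0.881 RPKM in idn2 and 22.9 in the triple mutant. ERF104 had 9.19 RPKM in idn2 and 68.8 in the triple mutant, and SZF1 had 18.6 RPKM in idn2 and 103 in the triple mutant. In these 4 genes, chosen after their values were seen, idn2 lay near nrpe1, and the triple mutant, which carries idn2-1 too, lay above both.

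Gene families defined by the product names of the annotation were counted as well; the families were picked with the results known. Of 27 families counted, some are given here, to be read beside the 2.16% lower and 0.607% higher of all tested genes. Of 87 tested AP2/ERF genes 17 were lower (19.5%) and 3 were higher (3.45%). Of 52 WRKY genes 8 were lower (15.4%) and 1 was higher (1.92%), and of 62 NAC genes 8 were lower (12.9%) and 2 higher (3.23%). Of 93 MYB genes 7 were lower (7.53%), and of 22 xyloglucan endotransglucosylase genes 6 (27.3%), with none higher in either family. Of 146 cytochrome P450 genes 10 were lower (6.85%) and 3 higher (2.05%). Of 98 genes with bHLH in the product name 1 was lower (1.02%) and none was higher. PIL1, a bHLH gene called higher, has another product name and is not counted among them. Of 296 genes named as ribosomal proteins, organellar ones included, none was called in either direction.

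Intron numbers did not enter the rule, but gene span did, since RPKM is per length and each value carries 1 added read; both are given as a description. Of 469 lower protein-coding genes 206 had no intron in the annotation (43.9%), as had 36 of 100 higher ones (36.0%), beside 3800 of 19906 tested protein-coding genes (19.1%). The median span was 1438.5 bases for lower, 1014 for higher and 1950 for all tested genes. In WT replicate 1 the lower genes had a median level of 16.6 RPKM and the higher genes 1.03, beside 10.02 over all tested genes; as the rule used these values, the levels are a description only. The higher genes were spread over all chromosomes, with 32 of 134 (23.9%) on chromosome 2, which held 15.5% of tested genes.

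Neighbouring genes were called together in a minority of cases. Leaving out overlapping pairs, 38 of the 476 lower genes (7.98%) had an adjacent gene that was also lower, beside 3.06% of all tested genes with such a neighbour, and 10 of the 134 higher genes (7.46%) had a higher neighbour, beside 0.766%. Of these 10, 6 were the snoRNA genes of the runs given above, on 2 to 16 reads in nrpe1. The single run of 3 adjacent lower genes, on chromosome 2, held the glycosyltransferase genes UGT73C6 and DOGT1, with 15.3 and 18.7 RPKM in WT and 5.56 in nrpe1, and 36.6 and 37.8 against 12.8, in that order, and AT2G36792, which overlaps UGT73C6. These glycosyltransferase genes are close copies that can share reads, so their separate levels are uncertain.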

How the data were processed

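The deposited values are RPKM per gene, made by the authors on TAIR8 gene models as the file names state; per the submitters' processing notes Bowtie was used (version not given), and how strand, duplicates and repeated reads were handled is not given there. Times the gene span, every library's values (100%) came out as whole multiples of its smallest step, within 1e-06 steps. The lowest multiple, 1, was read as 1 added read per gene.

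Calls required at least 2-fold on log2(RPKM + 1) from each WT library, a scale that understates changes of low genes, with at least 1 RPKM in any of the 3 libraries. With 1 mutant library no test was made. The size rule was checked on simulated counts that held counting error only. The genes to be changed were drawn from tested genes with at least 20 reads in the WT pair. At a simulated 2-fold change the rule recovered 21% of higher and 19% of lower genes, and at 4-fold 100% and 85%. These shares do not cover genes with fewer WT reads, such as the 28 higher genes with 0 reads in both WT libraries. In the 2-fold setting 12 unchanged genes were called higher and 17 lower. Read ratios carry exact 95% binomial intervals, with a floor of 3 reads over the WT pair, or in nrpe1, where reads were 0; both cover counting error only.

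Named were up to 30 genes per direction with at least 20 reads, ranked by distance to the nearer WT library, members of 30 gene and 6 tissue marker lists, runs of 3 or more adjacent genes, NRPE1 and control genes. Members, lists and rules were chosen with earlier results of these data known. Some list names were matched to IDs by hand where a symbol was ambiguous. Symbols, classes, products and intron numbers came from TAIR10.1 by ID (32377 matched, 570 not); positions are TAIR8, read as counting from 0, with 1 added, and can be off by 1 base. Promoter motif counts were planned and made on TAIR10.1 sequence, then left out, because the deposited tables are on another build. The alternatives tried were the pseudocount, the filter, the scaling, the fold, each WT library alone, the added read, the counting interval and overlapping genes. Tables and intervals were made in Python 3.11.15 (pandas 2.3.3, numpy 2.4.6, scipy 1.17.1), and figures in matplotlib 3.10.9.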

Additional observations from a re-analysis of the deposited data

How the results depend on the processing

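The counts of 134 higher and 476 lower genes moved with the fold, the WT library used and the treatment of low values. A pseudocount of 0.25 gave 252 higher genes, and a pseudocount of 4 gave 52 higher and 264 lower. Requiring at least 20 reads in at least 1 library gave 61 higher. At 1.5-fold the counts were 482 and 1260, and at 4-fold 28 and 87. Each WT library alone gave 230 to 376 higher and 568 to 844 lower genes: without WT replicate 1 they were 230 and 844, and without WT replicate 2 they were 376 and 568. With 20 reads required the higher genes were 12.0% of all calls, and without WT replicate 2 they were 39.8%, in place of 22.0%. The other settings left both counts within 1.5 times, including median-of-ratios scaling (141 and 494), quantile normalization (160 and 485), and the added read taken off (199 and 566). Of the 30 named lower genes, 30 were called in every setting except with overlapping genes left out, where AT2G27080 drops out by construction; of the 30 named higher genes 24 were called at a pseudocount of 4 and 19 at 4-fold, and MRD1 and HEI10 drop out as overlapping genes. No named difference turned its direction, but 152 of 780 values of named genes under other settings moved by more than the WT spread. Among 780 list counts under other settings 100 moved by over 1.5 times. No paired analysis was possible because the mutant has 1 library and its label carries no replicate number. Of the higher genes 73 had under 20 reads in nrpe1, so their sizes carry wide counting error.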
